A study of Mus musculus with 2 samples.

Results

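Somite cells are the cells of the segmented paraxial mesoderm, taken here as single-cell barcodes that held at least 4 unique molecular identifiers (UMIs, each standing for 1 counted RNA molecule) of Tcf15 and Meox1 together. Tcf15 (paraxis) is a basic helix-loop-helix factor needed for somites to become epithelial, and Meox1 is a homeobox factor of the somite. Members also had at most 1 UMI of Mesp2 and Ripply2 together, which mark the mesoderm about to form a boundary, and at most 1 UMI of Msgn1 and Tbx6 together, which mark unsegmented mesoderm. The rule was applied to 19550 kept barcodes, out of 48694 in all. A barcode was kept when it held 2000 UMIs or more from 1000 genes or more, with 0.3 to 10% of its UMIs from mitochondrial genes. The rule found 1247 members. Replicate 1 held 666 members among 11228 kept barcodes (5.93%, 95% exact interval 5.50 to 6.38) and replicate 2 held 581 among 8322 (6.98%, 6.44 to 7.55).

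The samples were 2 libraries of pooled caudal tissue from embryos of the C57BL/6J strain, wild type and at embryonic day 8.5, dissociated for 15 min with TrypLE and captured with a 10x Genomics 5′ kit that reads RNA near its 5′ end. There was no treatment and no other genotype, so every comparison is between classes of cells in the same libraries. The number of embryos per pool is not given in the labels, and neither is whether the libraries came from separate pools, so p values measure only the spread between these 2 libraries, which may be technical. The series title concerns neuromesodermal progenitors, cells of the tail end that supply both spinal cord and paraxial mesoderm.

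Somites form in order from head to tail, as cells of the presomitic mesoderm leave a zone of FGF and Wnt signal at the tail end, pass a front where oscillating Notch signal is fixed into a stripe, and become epithelial blocks. Each block has a rostral and a caudal compartment with its own transcription factors. It later yields sclerotome, the source of vertebrae and ribs, and dermomyotome, the source of muscle and dermis. Somites are also a main source of retinoic acid in the trunk.

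Levels below are UMIs of a gene summed over the cells of a class in 1 library, per 1000000 UMIs of that class (CPM). Pairs of values are always given as replicate 1 and then replicate 2. CPM is not scaled by gene length, so levels are not compared between genes. The members' sums held 13921765 and 9741624 UMIs, and the median member had 20380.5 and 16006 UMIs, against 17730 and 13530 in the other kept barcodes. Fold changes are log2, somite cells minus the compared class, given with a standard error (n = 2 libraries per class). They come from edgeR's quasi-likelihood test with the library as a block and Benjamini-Hochberg adjustment over all genes tested. The standard error is the size of the fold divided by the square root of the test's F statistic. It rests on a spread that edgeR moderates across genes, and not on the 2 libraries of each gene alone. The 6 genes of the rule are described without a test. The libraries shared 114 kept barcodes, and 1 of these was a member in both. The doublet caller Scrublet marked 98 members (14.7%) in replicate 1 and 19 (3.27%) in replicate 2, against 8.75 and 3.07% of the other kept barcodes.

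The values that chose the members were as follows. The sum of Tcf15 and Meox1 had a median of 23 and 22 UMIs per member and ranged from 4 to 96 in replicate 1 and from 4 to 105 in replicate 2. Most members, 602 and 502, held both genes, while 22 and 8 lacked Meox1 and 42 and 71 lacked Tcf15. The members' summed level was 736 and 738 CPM for Tcf15 and 534 and 692 CPM for Meox1, against 19.1 and 28.0 CPM and 16.4 and 25.6 CPM in the other kept cells. The limits on Mesp2 and Ripply2 left out 140 and 136 barcodes that met the Tcf15 and Meox1 limit, and those on Msgn1 and Tbx6 left out 150 and 122. At the edge, 60 and 37 members had exactly 4 UMIs, and 92 and 33 barcodes that met the other limits had 3.

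The rule came with 2 further markers, Aldh1a2 and Foxc2, that it did not use to choose members. Members were chosen with earlier results of these data known, so these markers are no separate check of the label. Neither passed the test against the anterior presomitic class described further on. Aldh1a2, which makes retinoic acid from retinal, stood at 842 and 207 CPM in members and at 53.6 and 16.6 CPM in the other kept cells. Foxc2, a forkhead factor of paraxial mesoderm, stood at 279 and 311 CPM against 18.9 and 21.9 CPM. Both were higher in members in each library. In cells thinned at random to 5000 UMIs, so that depth is the same in every cell, Aldh1a2 was found in 83.8% (80.6 to 86.6) and 45.7% (41.6 to 50) of members and Foxc2 in 64.2 and 67.1%. Without thinning the shares were 93.7 and 68.3% for Aldh1a2 and 85.1 and 84.3% for Foxc2. Cells rich in Epcam, an epithelial adhesion gene, served as a background that should lack these genes, and 2.40 and 2.16% of them held Aldh1a2. They had at least 4 UMIs of Epcam. They also had at most 1 UMI of each of the pairs Tcf15 and Meox1, Mesp2 and Ripply2, Msgn1 and Tbx6, and Foxf1 and Hand2. These limits left out barcodes with more somite reads, which can lower the background here and wherever these cells are used below. Thinning left out 38 and 19 members below 5000 UMIs.

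The edge of the class differed from its core. Aldh1a2 stood at 143 and 61.9 CPM in members with exactly 4 UMIs of Tcf15 and Meox1 and at 1182 and 264 CPM in members with 20 or more. Foxc2 moved the same way, from 50.9 and 63.9 CPM to 389 and 402 CPM. Epcam went the other way, from 164 and 38.0 CPM at 4 UMIs to 28.1 and 14.8 CPM at 20 or more, so the members nearest the limit held the most epithelial reads of these 2 strata. The barcodes just outside, with 3 UMIs, had 181 and 39.2 CPM of Aldh1a2, 30.8 and 37.1 CPM of Foxc2 and 136 and 71.9 CPM of Epcam. The strata were cut on Tcf15 and Meox1, and their values are a description with no test.

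**Figure D1:**
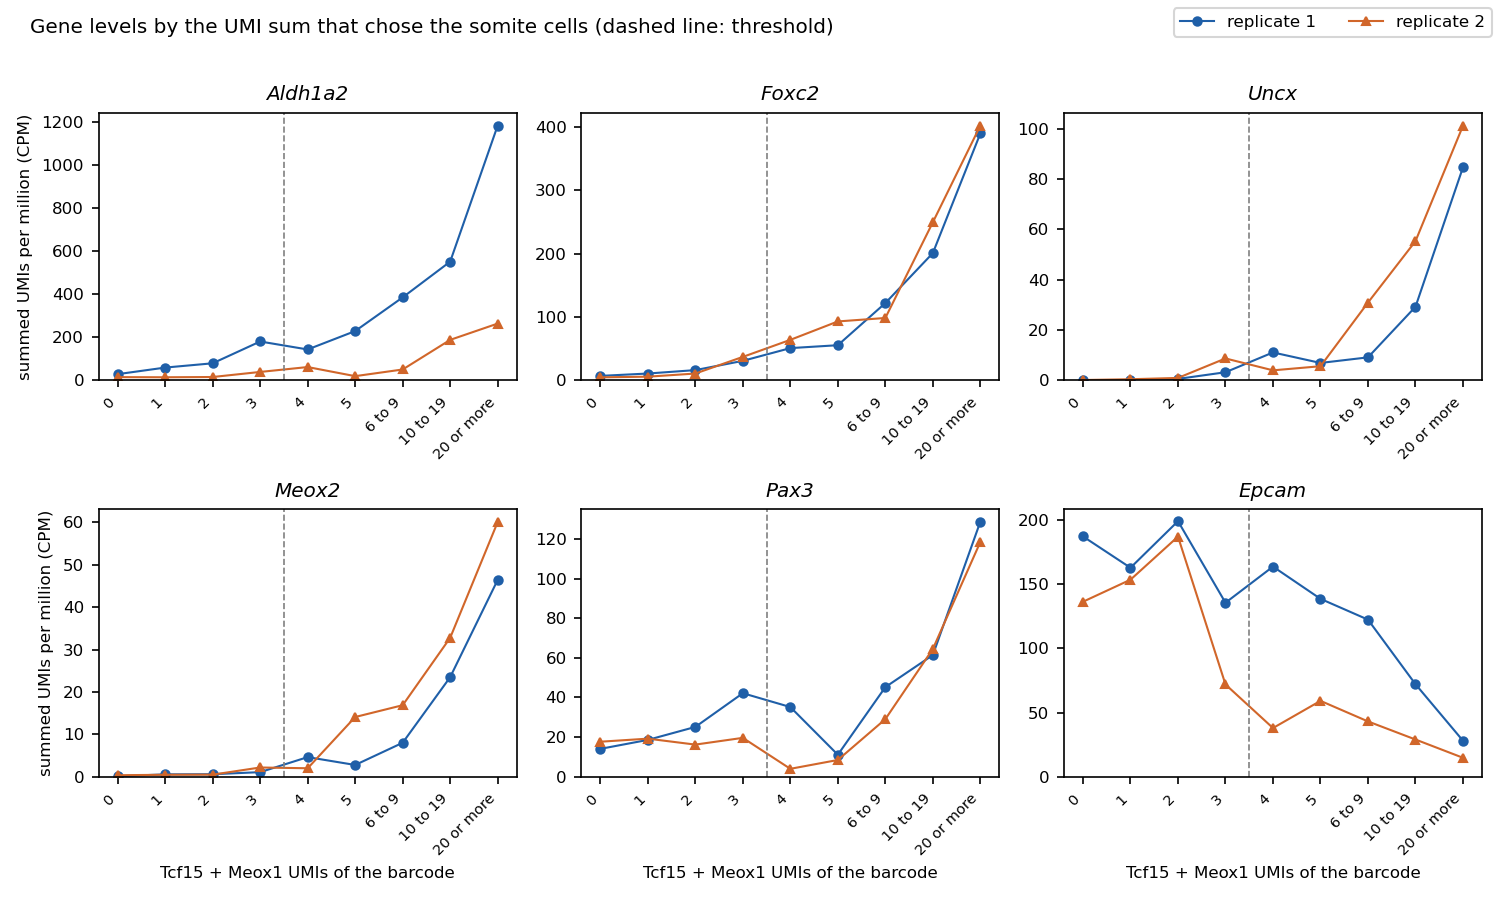
CPM of marker genes (vertical axis) in kept barcodes grouped by their summed Tcf15 and Meox1 UMIs (horizontal axis), with 1 point per library, no error bars because each point is 1 summed class, and a dashed line at the limit of the rule. Aldh1a2 and Foxc2 are highest in the group with 20 or more UMIs (1182 and 264 CPM of Aldh1a2), while Epcam is lowest there (28.1 and 14.8 CPM).

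Of 16 marker lists, most of those for other cell types summed to less in members than in the other kept cells. The germ cell list was higher in members of both libraries (4.09 and 3.49 CPM against 3.05 and 1.55 CPM), and the neural crest list was higher in members of replicate 1 only (3.23 and 3.39 CPM against 2.59 and 4.11 CPM). The posterior presomitic list summed to 114 and 171 CPM in members and 331 and 345 CPM elsewhere. It holds Msgn1 and Tbx6, and the anterior presomitic list holds Mesp2 and Ripply2, which the rule limited in members. The lower sums of these lists were thus in part set by the rule. The endoderm list summed to 139 and 50.4 CPM against 348 and 234 CPM, and the surface ectoderm list to 423 and 111 CPM against 1062 and 564 CPM. The endothelium list gave 45.2 and 48.0 CPM against 95.8 and 109 CPM. Blood markers were nearly absent from replicate 1 (3.52 CPM in members and 2.98 CPM in the other kept cells) but reached 2450 CPM in members of replicate 2, where the other kept cells had 8174 CPM. After thinning, Hba-x, an embryonic globin, was found in 11.4% of members and 14.1% of Epcam-rich cells of replicate 2, so its share in members was not above that background (30.5 and 28.3% without thinning). The intermediate mesoderm list was lower in members of replicate 1 (55.8 against 69.9 CPM) and higher in members of replicate 2 (107 against 58.6 CPM). No defining marker was at 0 in members of both libraries, and only 1 cardiac marker in replicate 1 and 1 neural crest marker in replicate 2 had no UMI. The part of these cells, of doublets or of free RNA in the results below was not tested. The counts of called genes without the barcodes that Scrublet marks stayed within 1.5 times of those given here.

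Against all other kept cells, 2833 of 15855 genes differed. Somite cells were higher in 1232 (7.77% of genes tested) and lower in 1601 (10.1%). Of the 2833, 2828 moved the same way in replicate 1 as in replicate 2. The calls were made from these same 2 libraries, so this agreement was largely set by the calling and is no separate support. With the library left out as a block, 26 genes were called, and all 26 were among the 2833. The median over all genes tested was -0.00.

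Most somite and dermomyotome factors were higher in members. Of 16 somite and dermomyotome factors tested, 13 were higher in members, 0 were lower and 3 were not called, and the list's median was 2.58. Meox2, a homeobox relative of Meox1, stood at 32.1 and 45.5 CPM in members and 0.661 and 1.10 CPM in the other cells (5.51 ± 0.14, adjusted p = 1.12e-06). Dmrt2, which acts in somite patterning and in the early dermomyotome, stood at 54.1 and 51.8 CPM against 1.19 and 1.47 CPM (5.37 ± 0.13, adjusted p = 8.9e-07). Sim1, a bHLH-PAS factor of the lateral dermomyotome, was higher by 3.91 ± 0.16, from 24.6 and 27.7 CPM in members. Eya1, a cofactor in muscle progenitors, was higher by 2.39 ± 0.12. Pax3, the dermomyotome and muscle progenitor factor, was less restricted, at 93.2 and 88.5 CPM in members and 15.2 and 18.1 CPM elsewhere (2.52 ± 0.09, adjusted p = 7.29e-06). The forkhead genes Foxc2 (3.92 ± 0.06) and Foxc1 (2.64 ± 0.07) were also higher.

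**Figure D2:**
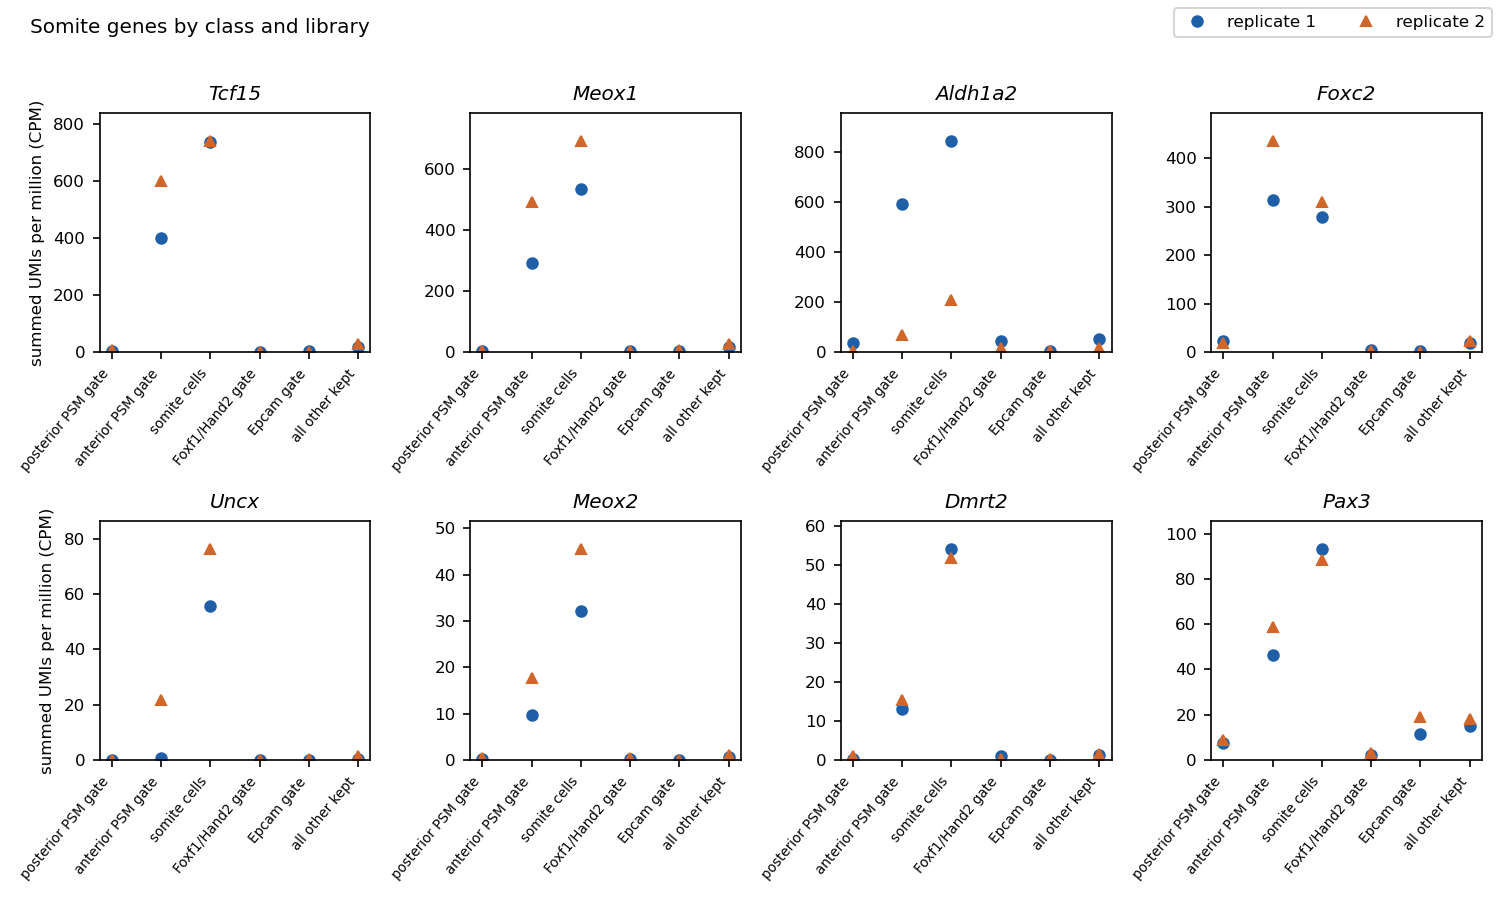
CPM (vertical axis, from 0) of 8 somite genes in somite cells, the posterior and anterior presomitic (PSM) gates, the Foxf1/Hand2 gate, the Epcam gate and all other kept cells, with 1 point per library. Tcf15 and Meox1 chose the somite cells and are shown as a description. Meox2 (32.1 and 45.5 CPM) and Dmrt2 (54.1 and 51.8 CPM) are highest in somite cells, whereas Foxc2 is as high in the anterior presomitic gate.

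Uncx and Tbx18 divide the somite along the body axis: Uncx is a homeobox gene of the caudal compartment and Tbx18 a T-box gene of the rostral compartment. Uncx stood at 55.8 and 76.3 CPM in members and 0.501 and 1.40 CPM in the other cells (6.27 ± 0.22, adjusted p = 5.25e-06). Tbx18 stood at 18.1 and 21.4 CPM against 0.480 and 0.794 CPM (5.00 ± 0.22, adjusted p = 1.64e-05). In thinned members, Uncx was found in 15.3% (12.6 to 18.3) and 19.9% (16.7 to 23.5) and Tbx18 in 7.01% (5.14 to 9.29) and 10.5% (8.09 to 13.3). The background in Epcam-rich cells was 0 of 1666 and 0.0939% for Uncx and 0 in both libraries for Tbx18, where 0 of 1666 and 0 of 1065 cells allow up to 0.221 and 0.346% by the exact interval. Without thinning, the shares in members were 26.1 and 31.0% for Uncx and 22.5 and 22.9% for Tbx18. Cells with both genes were rare: 0 of 628 thinned members in replicate 1 and 4 of 562 in replicate 2 held both, against 96 and 108 with Uncx only and 44 and 55 with Tbx18 only. Uncx was found in 0 and 6.78% of Tbx18-containing members and in 16.4 and 21.5% of those without Tbx18. Both genes were sparse, so few cells with both would be found in any case. These shares are a description of sparse counts within 1 library and not a test. Pax3 was found in 45.8 and 38.4% of Uncx-containing members and in 34.0 and 30.2% of the rest. It was likewise found in 45.5 and 35.6% of Tbx18-containing members and in 35.1 and 31.4% of those without Tbx18.

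Of the 10 genes listed for the rostral and caudal compartments, 5 were higher in members, 2 lower and 3 not called against all other cells. Cer1, a secreted antagonist of Nodal and BMP ligands that is expressed in the newest somites, stood at 43.5 and 110 CPM against 1.37 and 3.63 CPM (4.99 ± 0.09, adjusted p = 2.35e-07). Ripply1, a repressor that helps to end the presomitic programme, was higher by 2.73 ± 0.24. The Notch ligand gene Dll1 and the Notch target Hes5 were the 2 lower members of that list.

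Sclerotome factors, a list that also holds Uncx, were uneven. Of the 10 tested, 6 were higher, 1 was lower and 3 were not called (median 2.08). Pax1, the classical sclerotome gene, was scarce, at 4.31 and 6.36 CPM in members, but nearly all of its UMIs in the tissue were there: the other kept cells held 1 and 5 UMIs of Pax1. After thinning, 1.43 and 2.67% of members held Pax1, and 0 of 1666 and 0 of 1065 Epcam-rich cells did. Its partner Pax9 was found in 0.796 and 0.178% of members, and in 6.36 and 3.85% of Epcam-rich cells, which held most of the Pax9-positive cells of the tissue and so are no background for this gene (3 and 1.20% of members and 17.3 and 8.55% of Epcam-rich cells without thinning). Its level was 1.72 and 0.821 CPM in members, 2.89 and 1.58 CPM in all other kept cells (-0.74 ± 0.29, adjusted p = 0.129) and 0.524 and 0.216 CPM in the Foxf1/Hand2 class described further on, where somite cells were higher (1.51 ± 0.38, adjusted p = 0.0226). Myf5, the first of the muscle determination genes, was found in 3.5% (2.21 to 5.26) and 0.890% (0.289 to 2.06) of thinned members, against 0.0600% (0.00152 to 0.334) and 0.188% (0.0228 to 0.677) of Epcam-rich cells, so its intervals overlapped the background in replicate 2. Pax7 was found in 0 of 628 thinned members, which allows up to 0.586%, and in 1 of 562 (0.178%), against 0.18 and 0.845% of Epcam-rich cells. Without thinning, 3 of 666 members and 1 of 581 held Pax7, against 1.43 and 1.58% of Epcam-rich cells. Without thinning, 4.20 and 4.99% of members held Pax1 and 9.91 and 3.44% held Myf5.

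Members were also sorted by the UMIs of these genes. The Pax1 group (at least 2 UMIs of Pax1, Pax9 and Nkx3-2 together, and more than of Pax3 and Pax7) held 16 and 11 members, and the converse Pax3 group held 309 and 224. With fewer than 50 cells in the smaller class, no test was made, and the genes below were chosen after their values were seen. Twist1, a bHLH factor of mesenchyme, stood at 315 and 561 CPM in the Pax1 group and 196 and 187 CPM in the Pax3 group, and Ptch1, the Hedgehog receptor that its own pathway induces, at 127 and 174 CPM in the Pax1 group and 63.9 and 46.3 CPM in the Pax3 group. Dmrt2 went the other way, with 3.19 and 32.7 CPM (1 and 6 UMIs) in the Pax1 group and 82.6 and 74.0 CPM in the Pax3 group. Cer1 had no UMI in the Pax1 group, where 3 UMIs would be 9.56 and 16.3 CPM, and 63.5 and 155 CPM in the Pax3 group. For Twist1, Ptch1, Dmrt2 and Cer1 the values of the 2 groups did not overlap. The share of all genes that do so was not counted, so this is a description only. Epithelial genes were higher in the Pax1 group of replicate 1, with Epcam at 194 CPM against 39.1 CPM in the Pax3 group, Cldn7 at 115 against 28.0 CPM and Cldn6 at 76.5 against 20.1 CPM. In replicate 2 the Pax1 group had 0 UMIs of all 3 genes. Scrublet marked 3 of the 16 and 0 of the 11 cells of the Pax1 group. The part of epithelial reads or doublets in the differences between these groups was not tested.

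The starts of 3 of these genes are shown because they are high in somite cells and represent different roles: retinoic acid synthesis (Aldh1a2), the caudal compartment (Uncx) and the newest somites (Cer1). Each is the 250 bases upstream of the RefSeq transcription start, from 5′ to 3′ on the gene's strand, on GRCm38.p6. Aldh1a2 is at chr9:71215539-71215788 on the plus strand, Uncx at chr5:139543648-139543897 on the plus strand and Cer1 at chr4:82885152-82885401 on the minus strand. Capitals mark 2 motifs: the E-box CANNTG, the class of site that bHLH factors such as Tcf15 bind, and TAATTA, the core that many homeobox factors bind. Both motifs read the same on either strand and cannot overlap each other.
Aldh1a2: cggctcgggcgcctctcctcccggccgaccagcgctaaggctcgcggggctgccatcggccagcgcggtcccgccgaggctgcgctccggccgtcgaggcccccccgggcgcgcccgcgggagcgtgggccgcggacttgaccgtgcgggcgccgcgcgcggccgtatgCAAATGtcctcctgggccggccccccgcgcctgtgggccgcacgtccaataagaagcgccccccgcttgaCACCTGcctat
Uncx: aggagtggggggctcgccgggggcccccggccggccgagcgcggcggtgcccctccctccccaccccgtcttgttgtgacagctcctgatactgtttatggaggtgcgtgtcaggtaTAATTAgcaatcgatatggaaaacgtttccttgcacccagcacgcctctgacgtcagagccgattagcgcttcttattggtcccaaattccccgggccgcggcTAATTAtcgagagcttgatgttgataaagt
Cer1: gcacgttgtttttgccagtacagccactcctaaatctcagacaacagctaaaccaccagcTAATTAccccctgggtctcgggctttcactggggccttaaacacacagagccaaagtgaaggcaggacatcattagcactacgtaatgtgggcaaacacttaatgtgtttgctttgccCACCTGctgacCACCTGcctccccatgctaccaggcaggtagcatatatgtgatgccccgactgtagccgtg
Aldh1a2 had 2 E-boxes and 0 TAATTA, Uncx had 0 and 2, and Cer1 had 2 and 1. An E-box was in 66.2% of all 32851 such windows, in 58.1% of the 15184 windows of genes tested and in 54.5% of the 1233 windows of genes higher in somite cells. TAATTA was in 4.84, 2.52 and 2.27% of the same sets. These matches describe letters in the windows, and no binding was measured. Tcf15, Meox1 and Foxc2 have no entry.

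Retinoic acid genes differed in both directions. Of 16 tested, 5 were higher in members, 4 were lower and 7 were not called (median 0.18). The synthesis gene Aldh1a2 was higher by 3.88 ± 0.09 (adjusted p = 8.9e-07), and Rdh10, which makes the retinal that Aldh1a2 uses, and Stra6, a retinol uptake receptor, were also called higher. Stra6 stood at 77.9 and 41.8 CPM in members and 30.5 and 28.3 CPM in the other cells (1.05 ± 0.16). The retinoic acid hydroxylase gene Cyp26a1 was lower, at 20.4 and 17.6 CPM against 81.2 and 89.8 CPM (-2.09 ± 0.10, adjusted p = 2.3e-05). The receptor genes fell on both sides: Rara and Rxrb were higher (0.25 ± 0.07 and 0.26 ± 0.07), and Rarg, the receptor of the caudal region, was lower by 1.32 on the log2 scale, at 27.9 and 24.3 CPM against 72.1 and 64.2 CPM. The level of Aldh1a2 differed between the libraries in members and in the other cells alike, and its fold was 4.04 in replicate 1 and 3.68 in replicate 2.

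Many FGF, Wnt and BMP genes were lower in somite cells. Of 19 FGF genes, 2 were higher, 10 were lower and 7 were not called (median -0.97). Fgf8, the main caudal ligand, stood at 35.7 and 23.1 CPM against 132 and 93.1 CPM (-1.88 ± 0.07), and Fgf17 at 8.69 and 10.4 CPM against 42.7 and 68.6 CPM (-2.44 ± 0.12). The 2 higher genes were the receptor Fgfr1 and the ligand Fgf18. Of 29 Wnt genes, 3 were higher, 17 were lower and 9 were not called (median -0.90), and the 3 higher genes were the receptors Fzd2 and Fzd7 and the repressive effector Tcf7l1. Of 22 BMP and TGF-beta genes, 1 was higher, 12 were lower and 9 were not called (median -0.71). The higher gene was Fst, a secreted trap for activin and BMP, at 304 and 93.8 CPM against 29.2 and 10.7 CPM (3.33 ± 0.08). Of 13 Hedgehog genes, 5 were higher (Gli1, Gli2, Boc, Cdon and Gas1, which receive the signal), 2 were lower (the ligands Shh and Ihh) and 6 were not called.

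Posterior Hox genes were lower. Of 10 Hox genes of groups 9 to 13 tested, 0 were higher, 9 were lower and 1 was not called (median -1.94), and Hoxc9 stood at 7.18 and 22.7 CPM against 26.3 and 98.9 CPM (-1.96 ± 0.09). Hox groups 1 to 4, which act further toward the head, were split, with 3 higher, 3 lower and 6 not called of 12 (median -0.03). Groups 5 to 8 had 2 higher, 4 lower and 5 not called of 11 (median -0.79). Cdx2 and Cdx4, caudal activators of Hox genes, were both lower (-1.91 ± 0.15 and -2.12 ± 0.10), while the Hox partners Pbx2, Pbx3, Meis1 and Meis2 were higher. The 1 posterior Hox gene that was not called, Hoxb9, stood at 35.3 and 206 CPM in members and 106 and 164 CPM in the other cells, so the libraries had opposite directions (-1.51 and 0.37).

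Surface and matrix genes were mixed. Of 20 adhesion genes, 4 were higher (Cdh11, Ncam1, Pcdh8 and Pcdh19), 10 were lower and 6 were not called, with Epcam at 63.9 and 23.4 CPM against 157 and 116 CPM (-1.66 ± 0.20, and -1.23 and -2.26 by library). Of 25 matrix genes, 4 were higher, 11 were lower and 10 were not called. Fbn2, an embryonic microfibril protein gene, was among the higher genes, at 181 and 370 CPM against 38.4 and 86.2 CPM (2.23 ± 0.06). Of 16 S phase genes 2 were higher and 0 lower, and of 16 G2 and M phase genes 3 were higher and 0 lower, with list medians of 0.07 and 0.07. DESeq2 called 2 higher and 0 lower in each list. Of all genes tested, edgeR called 7.77% higher and 10.1% lower, so these few calls are not read as a difference of the cycle lists. Of 15 glycolysis genes, 1 was higher, 5 were lower and 9 were not called, and the glucose transporter gene Slc2a1 stood at 526 and 231 CPM against 1147 and 507 CPM (-1.07 ± 0.04). 

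The 12 highest and 12 lowest folds among genes that reached 20 CPM in both libraries added genes outside the lists. Foxd2, a forkhead gene of paraxial mesoderm, stood at 34.0 and 31.1 CPM against 0.677 and 1.13 CPM (5.26 ± 0.22), and its antisense neighbour Foxd2os was beside it, so reads of the 2 cannot be told apart here. Arg1, an arginase gene, was at 248 and 354 CPM against 26.8 and 23.8 CPM (3.61 ± 0.15). On the lower side, Rbp4, a retinol carrier of visceral endoderm, stood at 43.5 and 3.90 CPM against 194 and 27.3 CPM (-2.23 ± 0.12), and Hand1, a lateral mesoderm factor, at 26.3 and 14.2 CPM against 108 and 72.9 CPM (-2.11 ± 0.09). Spink1 and Nepn, genes of the gut endoderm, were lower too, by 2.37 and 2.22 on the log2 scale, and by -2.08 and -3.67 (Spink1) and -1.73 and -3.96 (Nepn) by library.

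**Figure D3:**
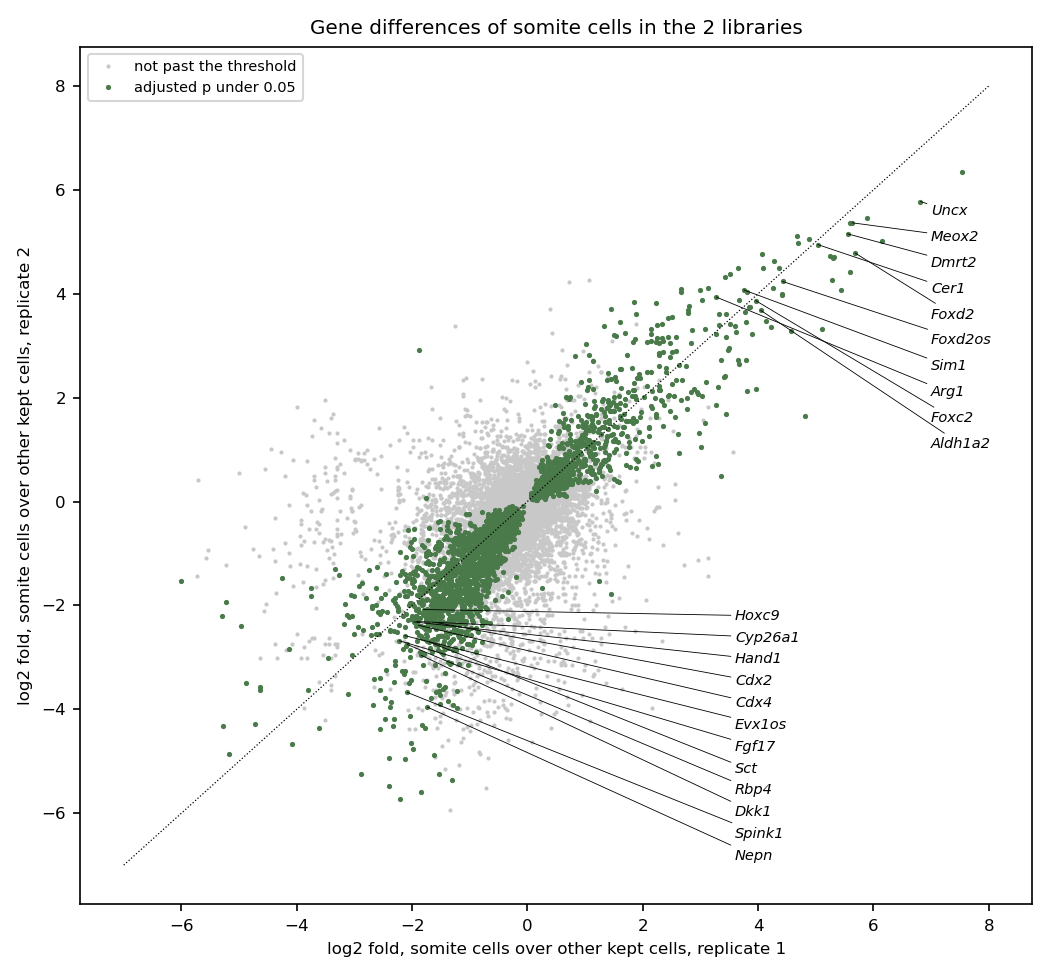
Log2 fold of somite cells over all other kept cells in replicate 1 (horizontal axis) against replicate 2 (vertical axis), with 1 point per gene tested, called genes in green, and most of the 12 highest and 12 lowest folds labelled. Uncx and Meox2 are at the upper right. Of the 2833 called genes, 2828 have the same sign in both libraries, which calling from these same libraries largely sets.

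The next comparison is with the unsegmented mesoderm from which somites form. The posterior presomitic class held 1290 and 840 barcodes with at least 4 UMIs of Msgn1 and Tbx6 together and at most 1 UMI of each of the other pairs. Of 13531 genes tested, somite cells were higher in 841 (6.22%) and lower in 776 (5.73%), and the median of all tested was -0.01. Without the library as a block, 293 genes were called.

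Several clock, Notch and FGF genes were lower in somite cells. Hes7, the oscillating repressor of the segmentation clock, stood at 18.2 and 18.7 CPM in somite cells and 214 and 210 CPM in the posterior class (-3.51 ± 0.08, adjusted p = 1.12e-08). The Notch ligand gene Dll1 stood at 30.0 and 38.9 CPM against 336 and 330 CPM (-3.27 ± 0.14), and Lfng, the glycosyltransferase that tunes Notch, at 12.9 and 23.1 CPM against 45 and 51.4 CPM (-1.45 ± 0.19). Of 17 clock and Notch genes, 2 were higher (the receptor Notch2 and the target Heyl), 6 were lower and 9 were not called. The FGF list had 3 higher, 10 lower and 5 not called of 18. Fgf3 was at 2.66 and 1.95 CPM against 64.8 and 61.3 CPM (-4.77 ± 0.51), and Fgf8 at 35.7 and 23.1 CPM against 233 and 171 CPM (-2.80 ± 0.19). The FGF receptor Fgfr2 went the other way, at 40.9 and 32.4 CPM against 11 and 6.40 CPM (2.08 ± 0.13).

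The Wnt list had 5 higher, 16 lower and 8 not called of 29. Wnt3a, the caudal ligand, stood at 5.03 and 1.33 CPM against 56.6 and 47.8 CPM (-3.99 ± 0.29, and -3.44 and -4.99 by library). Rspo3, a Wnt booster, stood at 45.8 and 32.4 CPM against 378 and 446 CPM (-3.41 ± 0.19). T (Brachyury), the factor of the primitive streak and tail end, stood at 19.8 and 8.83 CPM against 138 and 149 CPM (-3.34 ± 0.28, and -2.77 and -4.06 by library). The Wnt receptor genes Fzd2 and Fzd7 were higher in somite cells, by 1.46 ± 0.06 and 1.36 ± 0.12, so the list held differences in both directions.

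**Figure D4:**
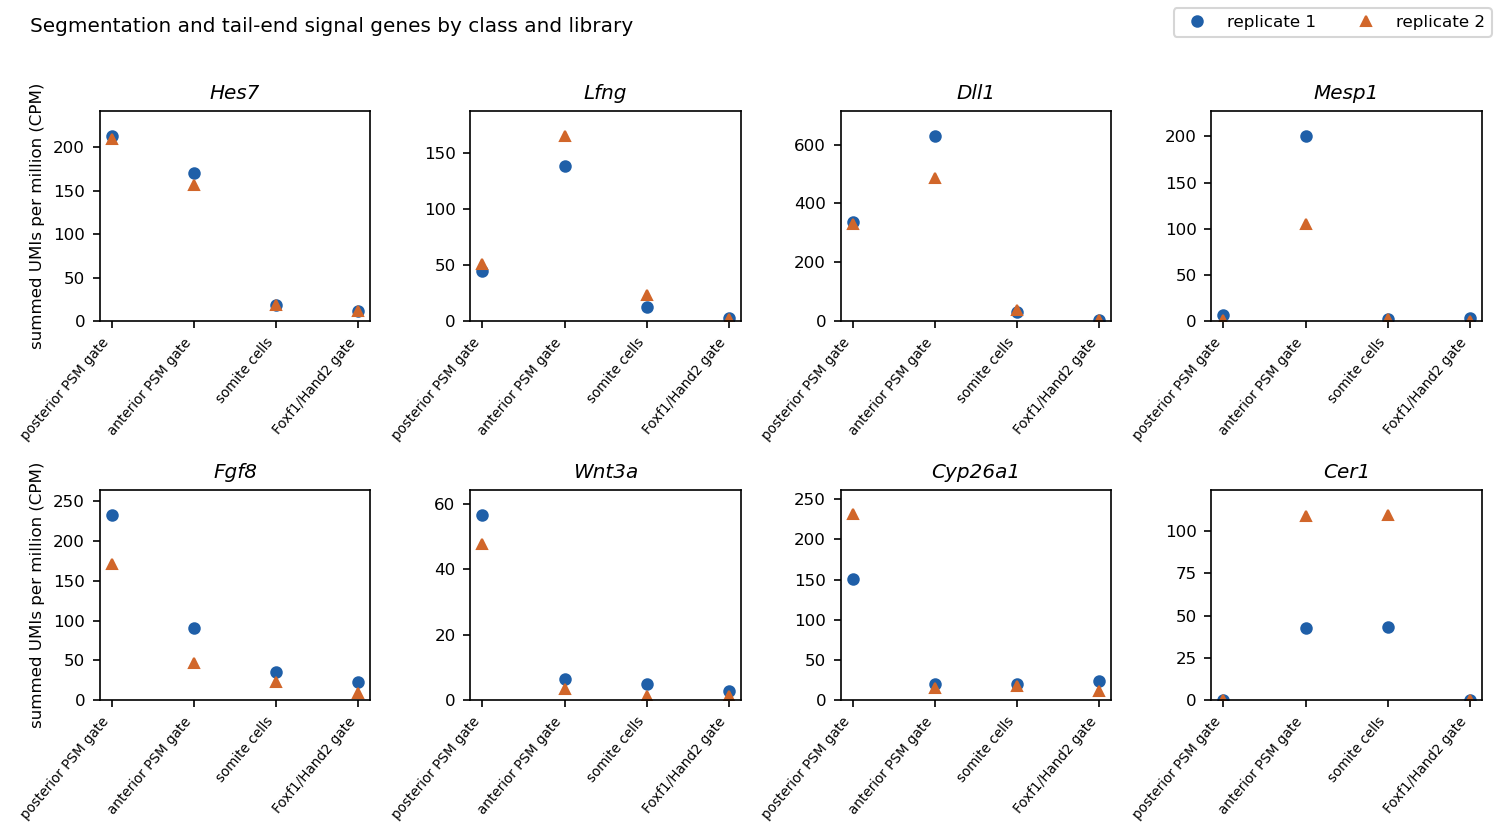
CPM (vertical axis, from 0) of 8 segmentation and tail-end signal genes in the posterior and anterior presomitic gates, somite cells and the Foxf1/Hand2 gate, with 1 point per library. Hes7 is 214 and 210 CPM in the posterior gate and 18.2 and 18.7 CPM in somite cells, and Cer1 is at the same level in the anterior gate and in somite cells.

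Most somite and dermomyotome factors were higher than in the posterior class. Of 15 somite and dermomyotome factors tested, 12 were higher, 0 lower and 3 not called (median 2.88). Tbx18 stood at 18.1 and 21.4 CPM in somite cells and had 4 and 2 UMIs in the posterior class. Uncx had 2 and 2 UMIs there and Cer1 4 and 1, against 55.8 and 76.3 CPM and 43.5 and 110 CPM in somite cells, with adjusted p = 1.13e-05 and 4.35e-08. Foxd1, a forkhead gene, stood at 197 and 153 CPM against 10.5 and 10.2 CPM (4.07 ± 0.18). Pax3 was at 93.2 and 88.5 CPM against 7.38 and 8.72 CPM (3.5 ± 0.13), and Twist1 and Prrx2, mesenchymal factors, were higher by 2.66 ± 0.12 and 2.88 ± 0.11. Aldh1a2 stood at 842 and 207 CPM against 36.0 and 4.80 CPM (4.78 ± 0.31, and 4.57 and 5.37 by library). Of 16 retinoic acid genes, 4 were higher, 3 lower and 9 not called. Rarb, a receptor gene that retinoic acid itself induces, was at 18.5 and 8.93 CPM against 4.29 and 1.92 CPM (2.10 ± 0.30).

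The Hedgehog list was higher in 7 of 13 genes and lower in 0, with 6 not called (median 0.64). The responsive genes Gli1 (24.1 and 16.5 CPM against 13 and 5.36 CPM, 1.17 ± 0.18) and Ptch1 (67.7 and 51.5 CPM against 41.9 and 35.0 CPM, 0.64 ± 0.09) were among them. The co-receptor gene Gas1 stood at 119 and 152 CPM against 36.1 and 41.2 CPM (1.80 ± 0.08). Boc and Hhip were called here, and lost the call when cells were thinned (Boc) or when members had at least 8 UMIs of Tcf15 and Meox1 (Hhip).

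Ephrin signals separate cells at somite borders. Of 16 Eph and ephrin genes, 4 were higher, 6 lower and 6 not called. The ligand gene Efnb2, which marks the caudal compartment, stood at 61.6 and 98.0 CPM against 10.1 and 5.84 CPM (3.24 ± 0.30, and 2.62 and 4.02 by library). Its partner Epha4, a receptor of the rostral compartment, was lower, at 20.7 and 43.0 CPM against 67.1 and 90.8 CPM (-1.36 ± 0.16). Pcdh8, a protocadherin of segmenting mesoderm, was higher by 3.64 ± 0.12. Of 25 matrix genes 6 were higher, 3 lower and 16 not called. Fbn2 was higher (2.74 ± 0.08) and fibronectin, Fn1, was lower, at 285 and 368 CPM against 493 and 656 CPM (-0.80 ± 0.11).

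Many Hox genes were lower in somite cells than in the posterior class. Groups 1 to 4 had 2 higher, 9 lower and 1 not called of 12 (median -0.69), groups 5 to 8 had 2 higher, 4 lower and 5 not called of 11, and groups 9 to 13 had 0 higher, 5 lower and 5 not called of 10. Hoxb1 stood at 54.4 and 50.3 CPM against 184 and 215 CPM (-1.93 ± 0.25) and Hoxd9 at 9.55 and 12.1 CPM against 43.3 and 94.9 CPM (-2.58 ± 0.24). Hoxd3, among the higher genes, differed by 0.68 ± 0.15. By edgeR's quasi-likelihood test, 0 of 16 S phase and 0 of 16 G2 and M phase genes were called, with list medians of 0.07 and -0.02. Of all genes tested in this comparison, 6.22% were higher and 5.73% lower. At an unadjusted p under 0.05, 2 S phase genes were higher, and 1 G2 and M phase gene was higher and 2 were lower, and DESeq2 called 0 in either list. Of 15 glycolysis genes, 7 were lower and 0 higher, with Ldha at 2846 and 3593 CPM against 3752 and 4856 CPM (-0.41 ± 0.04).

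The anterior presomitic class, cells with at least 4 UMIs of Mesp2 and Ripply2 together, held 119 and 102 barcodes and gave the fewest called genes of the 4 comparisons. Its cells also expressed the genes of the somite rule, with 398 and 600 CPM of Tcf15 and 291 and 491 CPM of Meox1. Of 13531 genes, somite cells were higher in 127 (0.939%) and lower in 152 (1.12%), and the median of all tested was 0.01. Without the library as a block, 25 genes were called. The class is small, which limits the counts behind it.

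Several segmentation genes were among the 152 that were lower in somite cells. Mesp1, the bHLH neighbour and relative of Mesp2, stood at 2.66 and 2.26 CPM in somite cells and 200 and 105 CPM in the anterior class (-5.99 ± 0.51, adjusted p = 0.000387). Dll1 stood at 30.0 and 38.9 CPM against 629 and 486 CPM (-4.03 ± 0.14), Dll3, its inhibitory relative, at 59.6 and 106 CPM against 540 and 639 CPM (-2.87 ± 0.25), and Lfng at 12.9 and 23.1 CPM against 138 and 165 CPM (-3.11 ± 0.20). Of 17 clock and Notch genes, 6 were lower, 1 was higher (Hey2) and 10 were not called. Pcdh8, higher in somite cells than in the posterior class, was lower than in the anterior class, at 27.1 and 30.5 CPM against 276 and 293 CPM (-3.31 ± 0.09), so it was highest in the anterior class of these 3. The stress and growth-arrest genes Ddit4 and Gadd45g were lower in somite cells too, by 2.89 and 2.52 on the log2 scale, as was the Wnt effector Lef1, at 120 and 216 CPM against 310 and 550 CPM (-1.36 ± 0.11).

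Foxc2 and Cer1 did not pass the test between these classes, and other somite factors did. Foxc2 stood at 279 and 311 CPM in somite cells and 314 and 435 CPM in the anterior class (-0.34 ± 0.18, adjusted p = 0.45). Cer1 stood at 43.5 and 110 CPM and at 42.9 and 109 CPM (0.01 ± 0.09, adjusted p = 0.998), and its sign turned without the barcodes that Scrublet marks (-0.091) and in thinned cells (-0.087). Foxc1 was lower in somite cells, at 65.3 and 96.9 CPM against 130 and 162 CPM (-0.87 ± 0.12). Uncx had 0.816 and 21.6 CPM there, from 2 and 38 UMIs, so the libraries differed in size (5.73 and 1.79 by library, adjusted p = 0.0142).

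Of 15 somite and dermomyotome factors, 6 were higher than in the anterior class (Meox2, Pax3, Dmrt2, Myf5, Prrx2 and Fst), 1 was lower and 8 were not called. Pax3 was at 93.2 and 88.5 CPM against 46.5 and 58.5 CPM (0.81 ± 0.13). Prrx2 was at 96.5 and 92.0 CPM against 31.0 and 26.1 CPM (1.72 ± 0.14), and Foxd1 at 197 and 153 CPM against 32.7 and 56.3 CPM (2.02 ± 0.21, and 2.59 and 1.42 by library). Aldh1a2 was higher in both libraries, at 842 and 207 CPM against 590 and 68.8 CPM, and did not pass the test (0.84 ± 0.27, adjusted p = 0.20). Without the filter on low counts, edgeR called it (0.87 ± 0.15). Of 16 retinoic acid genes, 0 passed by edgeR's test with the filter and 0 by DESeq2, and at an unadjusted p under 0.05, 3 were higher and 1 was lower. With 0.939% of all genes higher and 1.12% lower by edgeR, 0 of 16 is near that share and does not show that the classes are alike. The list's median was 0.27, against 0.01 for all genes tested. Dact2, a Wnt regulator, was at 69.0 and 66.2 CPM against 14.7 and 14.8 CPM (2.20 ± 0.25), and the adhesion gene Cdh11 at 55.7 and 44.4 CPM against 10.2 and 14.2 CPM (2.07 ± 0.28, and 2.42 and 1.61 by library). Among collagen genes, Col1a2 was at 28.9 and 29.7 CPM against 10.6 and 10.2 CPM (1.47 ± 0.16).

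Of 12 Hox genes of groups 1 to 4, 3 were lower (Hoxb1, Hoxb2 and Hoxd1), and 0 of 11 in groups 5 to 8 and 0 of 10 in groups 9 to 13 were called by edgeR. Of all genes tested in this comparison, 0.939% were higher and 1.12% lower, so 0 calls in groups 5 to 13 is near that share. DESeq2 also called 0 in groups 5 to 13, and at an unadjusted p under 0.05, 2 genes of groups 5 to 8 were lower and 0 genes of groups 9 to 13 passed. Several calls in this comparison depended on the setting. Thinning ended those of Meox2, Fgf4, Fgf8, Epha7, Epha4, Hoxb1, Col2a1 and Hey2, and DESeq2 did not call Pcdh19, Dmrt2, Uncx and Fst. Fgf8, Hoxb1, Col2a1 and Hey2 also lost the call when barcodes with 0 to 10% mitochondrial UMIs were kept. Tbx18 gained a call without the filter on low counts (1.36 ± 0.30) and when members had at least 8 UMIs of Tcf15 and Meox1 (1.60 ± 0.35).

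The Foxf1/Hand2 class, 2053 and 1538 barcodes with at least 4 UMIs of these lateral plate factors and at most 1 UMI of each of the other 3 pairs, gave a comparison with mesoderm beside the somites. Of 13529 genes, somite cells were higher in 1000 (7.39%) and lower in 1152 (8.52%), with a median over all tested of -0.00. Without the library as a block, 413 genes were called. Of 15 somite and dermomyotome factors, 12 were higher, 1 (Snai2) was lower and 2 were not called (median 4.47).

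Foxc2 stood at 279 and 311 CPM in somite cells and 4.26 and 2.16 CPM in the Foxf1/Hand2 class (6.38 ± 0.24, and 6.04 and 7.12 by library). Pax3 stood at 93.2 and 88.5 CPM against 2.25 and 2.99 CPM (5.11 ± 0.14). Both factors were nearly absent from the lateral class. Ntn1, a secreted guidance protein, was at 54.2 and 89.4 CPM against 1.22 and 3.25 CPM (5.04 ± 0.23), and the receptor gene Notch1 at 37.4 and 110 CPM against 7.95 and 8.70 CPM (2.95 ± 0.27, and 2.25 and 3.68 by library). Aldh1a2, which lateral mesoderm also uses, was higher by 4.01 ± 0.28. Twist1 did not pass the test, at 183 and 176 CPM against 221 and 145 CPM (0.02 ± 0.11, adjusted p = 0.943).

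The genes lower in somite cells included lateral mesoderm factors and BMP genes. Hand1 stood at 26.3 and 14.2 CPM against 266 and 204 CPM (-3.57 ± 0.23), Pitx1 at 11.6 and 19.8 CPM against 93.3 and 222 CPM (-3.23 ± 0.18) and Tbx4, a hindlimb and allantois factor, at 4.38 and 3.18 CPM against 45.4 and 27.6 CPM (-3.22 ± 0.15). Of 22 BMP and TGF-beta genes, 11 were lower, 1 was higher (Fst) and 10 were not called. Bmp4 stood at 18.8 and 14.8 CPM against 113 and 97.1 CPM (-2.61 ± 0.16). Col1a1 stood at 23.0 and 9.85 CPM against 127 and 97.5 CPM (-2.80 ± 0.21). The Hox genes of groups 9 to 13 were lower in 9 of 10 and higher in 0 (median -2.72), whereas groups 1 to 4 had 4 higher, 2 lower and 6 not called of 12. Hoxa2 was higher, at 22.1 and 23.2 CPM against 7.42 and 8.35 CPM (1.53 ± 0.12).

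**Figure D5:**
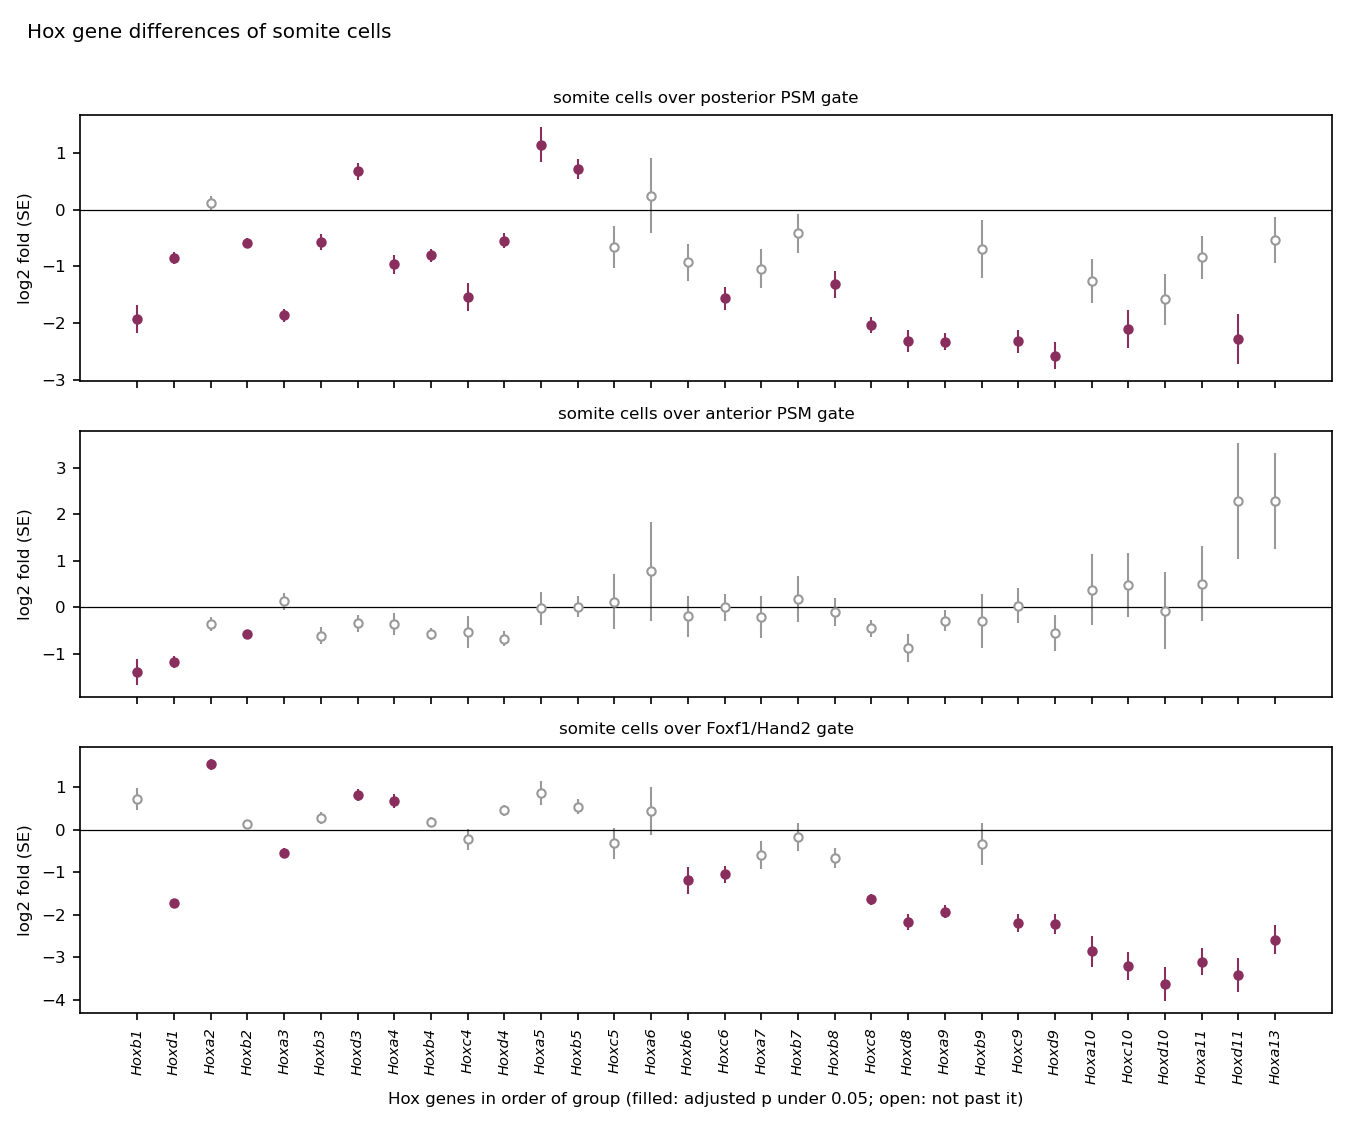
Fitted log2 fold of Hox genes (vertical axis, with bars of 1 standard error) in order of group, for somite cells over the posterior presomitic gate, the anterior presomitic gate and the Foxf1/Hand2 gate, with filled points past the adjusted threshold. Over the Foxf1/Hand2 gate, 9 of 10 genes of groups 9 to 13 are filled and below 0, where 8.52% of all genes tested were lower. Over the anterior gate 0 of 10 are filled. There 0.939% of all genes tested were higher and 1.12% lower, so 0 of 10 is near that share.

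Somite cells of the 2 libraries had similar levels of some factors and different levels of others, and the genes named here were chosen after their values were seen. Tcf15, Foxc2, Dmrt2, Pax3, Twist1 and Prrx2 had nearly the same CPM in both, as given above, whereas Meox1, Foxc1 and Cer1 were higher in replicate 2 (534 and 692, 65.3 and 96.9, and 43.5 and 110 CPM). Hoxb9 stood at 35.3 CPM in replicate 1 and 206 CPM in replicate 2, Hoxa7 at 14.2 and 82.2 CPM and Hoxc6 at 7.11 and 38.4 CPM. The other kept cells had 106 and 164 CPM of Hoxb9, 49.8 and 91.3 CPM of Hoxa7 and 24.7 and 66.3 CPM of Hoxc6, so they differed between libraries in the same direction by smaller ratios for these 3 genes. Pax2 and Pax8, genes of intermediate mesoderm, stood at 5.24 and 34.8 CPM and at 1.29 and 20.6 CPM in members, and Pax2 in the other cells was 12.9 and 12.3 CPM. In the Pax3 group these 2 genes were low in both libraries, with 3.59 and 3.45 CPM of Pax2 and 0.431 and 1.48 CPM of Pax8. Replicate 1 was the higher library for Aldh1a2, for Fst and for Crabp1, a retinoic acid binding protein gene (757 and 273 CPM in members, 483 and 397 CPM in the other cells). With 1 library on each side there is no test of these differences. Whether the libraries came from separate pools is not given, so a difference between pools and one between library preparations cannot be told apart.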

How the data were processed

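Single-cell RNA of 2 libraries was measured. The deposited values are counts of UMIs per gene and barcode, made by the authors with Cell Ranger 6.1.1 on mm10, per the submitters' processing notes. The sources used here do not give the annotation or whether counting used strand, so genes that overlap an antisense partner, such as Foxd2 and Foxd2os, are uncertain. The 32286 features were used as deposited, and barcodes held at least 500 UMIs. Libraries had 295866003 and 150964773 UMIs in 30449 and 18245 barcodes.

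Members and compared classes were chosen on raw UMIs, and members and gene lists were chosen with earlier results of these data known. Counts were summed per class and library and fitted with edgeR 4.0.16 in R 4.3.3 (quasi-likelihood F test with library as a block, TMM scaling, genes filtered by filterByExpr, prior count 2), with p values adjusted over all genes tested and a threshold of 0.05. Sums of the same number come from the same library, which is where the pairing comes from. The comparison with all other kept cells used 4 sums (1 residual degree of freedom), and the other 3 comparisons shared a fit of 8 sums (3 residual degrees of freedom) and the same somite sums. Named genes were the 12 highest and 12 lowest folds with at least 20 CPM in both libraries of the higher class, plus genes of the lists. Barcodes were called doublets with Scrublet (Scanpy 1.11.5, seed 0, 0.8% per 1000 barcodes) and kept. Thinning used 5000 UMIs and seed 11. Intervals are exact Clopper-Pearson at 95% and cover counting error only. The fit was run on simulated counts for the comparisons with all other kept cells and with the posterior class only. Their spread was set in advance and not taken from these libraries, so the spread here was not checked. Alternatives were DESeq2 1.42.0, other scaling, no filter, no block, no doublets, thinning, other limits of the rule and each library alone. A few genes of the lists are not reported here by name, and the counts over the lists include them.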

Additional observations from a re-analysis of the deposited data

Results flagged for a closer look

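Barcodes with under 0.3% mitochondrial UMIs lie outside the kept set, and some of them met the gene rule for somite cells. In replicate 1, 464 of 11204 such barcodes met it (4.14%), and in replicate 2, 226 of 5166 did (4.37%), against 5.93 and 6.98% of kept barcodes. Their median depth was 6675.5 and 5519 UMIs, against 20380.5 and 16006 UMIs in members. Aldh1a2 stood at 1203 and 205 CPM in them and 842 and 207 CPM in members, Foxc2 at 335 and 354 CPM against 279 and 311 CPM, and Epcam at 14.5 and 5.06 CPM against 63.9 and 23.4 CPM. Other somite genes fell on both sides. Pax3 was lower in them than in members, at 54.4 and 57.1 CPM against 93.2 and 88.5 CPM. Fst (172 and 36.2 CPM against 304 and 93.8 CPM) and Fbn2 (25.8 and 25.3 CPM against 181 and 370 CPM) were lower too. Dmrt2 (71.5 and 70.2 CPM against 54.1 and 51.8 CPM) and Uncx (66.4 and 106 CPM against 55.8 and 76.3 CPM) were higher. Epcam was not the only adhesion gene with a lower level, as Cdh2 stood at 31.2 and 17.4 CPM against 90.6 and 128 CPM. The causes were not tested.

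The feature table includes an eGFP sequence, although the embryos are labelled wild type. Members held 43 eGFP UMIs in replicate 1 and 24 in replicate 2 (3.09 and 2.46 CPM). The other kept cells stood higher (4.85 and 3.95 CPM), so the reads were not concentrated in somite cells, and their source was not tested.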

How the results depend on the processing

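Directions of the genes checked by name were the same under every alternative fitted to both libraries, except that Cer1 against the anterior class turned to -0.091 without Scrublet-marked barcodes and to -0.087 after thinning, and Twist1 against the Foxf1/Hand2 class turned to -0.011 without the replicate block. With 1 library alone, Hoxb9 against all other kept cells turned to 0.37 without replicate 1, Twist1 to -0.25 without replicate 2 and Cer1 to -0.0073 without replicate 1. Hoxb9 passed the test without the filter on low counts (-0.52). The causes were not tested. Without the replicate block, the counts of called genes were 26 (all other kept cells), 293 (posterior), 25 (anterior) and 413 (Foxf1/Hand2), and 24 of 36, 29 of 67, 31 of 45 and 9 of 34 genes checked by name lost their call. DESeq2 called 1743 genes against all other kept cells. Against the anterior class, 592 genes were called without the filter on low counts and 150 after thinning. The mean share of members over the libraries, 6.46%, became 8.84% with at least 2 UMIs of Tcf15 and Meox1, 5.69% with at least 6, 5.20% with at least 8 and 5.51% with 0 to 10% mitochondrial UMIs, and it was 5.93 to 6.98% with either replicate left out. A count of called genes without a replicate was not possible, since no residual degrees of freedom remain; per-library folds stand in its place. The anterior class held 119 and 102 barcodes, and its sums rest on the fewest cells of the 4 comparisons.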

Other observations

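Some D-type cyclin and cycle inhibitor genes differed between somite cells and their neighbours, in both directions. Against the posterior presomitic class, 2 of 9 such genes were higher in somite cells, 3 were lower and 4 were not called by edgeR's quasi-likelihood test. Of all 13531 genes tested there, 6.22% were higher and 5.73% were lower. Cdkn1c (p57), an inhibitor that favours exit from the cycle, stood at 101 and 172 CPM in somite cells and 65.3 and 88.6 CPM in the posterior class (0.81 ± 0.19, adjusted p = 0.0209). Against the Foxf1/Hand2 class the same gene was lower in somite cells, at 234 and 203 CPM in that class (-0.72 ± 0.18, adjusted p = 0.0253). Ccnd2, a cyclin of G1, stood at 143 and 270 CPM in somite cells and 222 and 322 CPM in the posterior class (-0.43 ± 0.08). Ccnd1 was slightly higher than in all other kept cells, at 314 and 335 CPM against 287 and 301 CPM (0.20 ± 0.04, adjusted p = 0.0157), and thinning ended that call. Without the library as a block, Cdkn1c in both comparisons, Ccnd2 and Ccnd1 lost their calls.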
